A study of Mus musculus with 16 samples.

Results

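The 35 genes described here are activity-induced immediate early genes, taken by gene symbol from a list that was chosen with earlier results of these data known. All 35 had a row, of 39017 gene rows, in each of the 3 tables that compare the RNA of one projection with its tissue, and all 35 were tested in each. The study profiled prelimbic cortex (PL) of C57BL/6J mice by viral translating ribosome affinity purification (vTRAP). AAV-IV-GFPL10, a Cre-dependent virus for a ribosomal protein fused to green fluorescent protein, was injected in PL in every group. CAV-Cre, a canine adenovirus that enters axon endings and carries Cre, was given at 1 of 3 targets of PL axons: nucleus accumbens (NAc), amygdala in its basolateral part (BLA), or ventral tegmental area (VTA). Only cells that took up both viruses were tagged. RNA of the tagged polysomes was pulled down with anti-GFP beads (IP) and compared with RNA of the PL tissue as a whole (Input). For PL-NAc there were 3 libraries of IP and 3 of Input, for PL-BLA the same, and for PL-VTA 2 of each, which makes 16 in all. The groups thus differ in the site of the CAV-Cre injection and in IP against Input, and share strain and tagging virus. The labels name no age, sex, stimulus or time of tissue collection, and do not say whether a replicate is 1 animal or a pool. P-values therefore measure the spread between these libraries, which may be technical.

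Immediate early genes are switched on within minutes of a neuron's firing, without new protein synthesis, by calcium and MAP kinase signals that act on factors already in the nucleus, such as CREB and SRF. Many encode transcription factors, which start a later wave of gene expression, and some encode proteins that act at the synapse. In cortex their RNA serves as a marker of recently active neurons, although several are also induced by stress, injury and blood flow in glia and vessels.

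The members are compact genes. By the GENCODE M21 models on GRCm38, the build named in the submitters' processing notes, their median span was 6714 bases with 4 merged exons, against 24853 bases and 10 merged exons over 15040 protein-coding genes tested in PL-NAc. Of the 35, 24 spanned under 10 kb, or 68.6%, against 24.1% of those protein-coding genes. CREB binds the cAMP response element (CRE), TGACGTCA, and its half-site TGACG. The half-site was searched on both strands in the 250 bases before each start site in the RefSeq promoter table (GRCm38.p6), counting those inside a full CRE. It was in 22 of 35 windows of the 25 members with an entry, or 62.9%, and in 17.8% of all 32851 windows. Windows of 1 gene can overlap, and by gene 15 of the 25 members had a match. The full CRE was in 2 of the member windows, those of Maff and Btg2, or 5.71%, against 1.55% of all windows. The CArG box, the site of SRF, was in 4 windows, all of them of Egr2, or 11.4% against 1.47%. Some of these windows overlap and hold the same site, and by gene 1 of the 25 members had a match. The AP-1 site TGANTCA was in 2.86% of member windows and 6.75% of all windows. A match is a description of letters in this window and no evidence of binding.

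**Figure D1:**
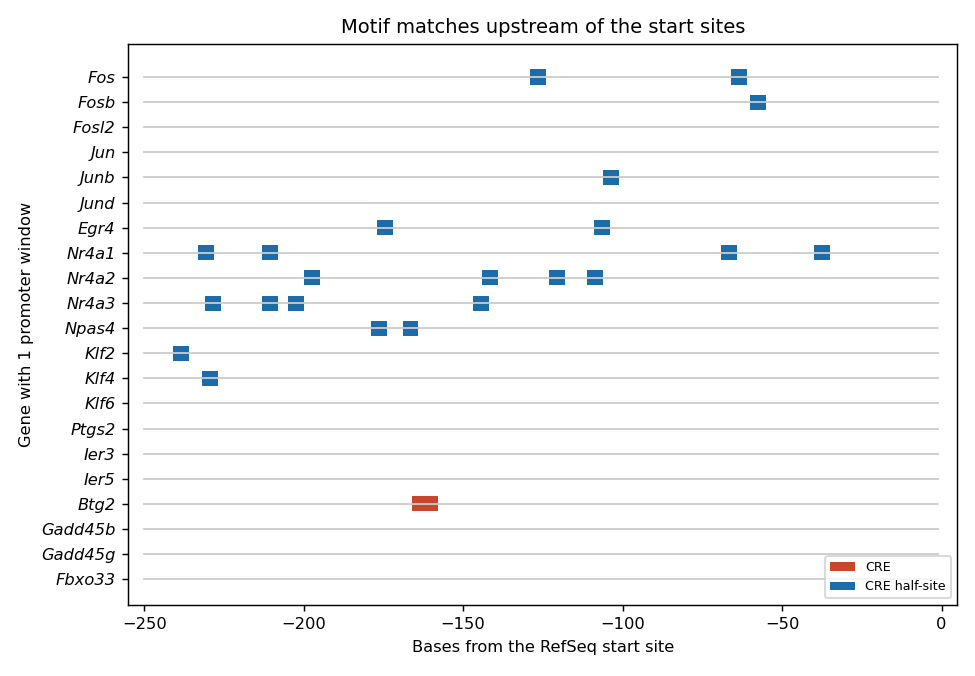
Matches to the CRE (red) and to its half-site outside a full CRE (blue) in the 250 bases before the RefSeq start site, for the 21 members with 1 promoter window; the x axis gives bases from the start site and each line is a gene. Of these 21 genes 11 had a match, the 3 Nr4a genes 4 each.

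Below are the 250 bases before the start site of 5 members with unlike results, on the gene's strand, 5′ to 3′, from the RefSeq promoter table (GRCm38.p6). Capitals mark the CRE half-site on either strand, so that a match on the opposite strand reads CGTCA. Fos, Junb and Nr4a1 are shown because their RNA was higher in the IP of both PL-NAc and PL-BLA, Egr4 because it was higher in all projections, and Klf2 because it was lower in all. The windows are chr12:85473640-85473889 (plus strand) for Fos, chr8:84978749-84978998 (minus) for Junb, chr15:101266596-101266845 (plus) for Nr4a1, chr6:85513590-85513839 (minus) for Egr4 and chr8:72318812-72319061 (plus) for Klf2.
Fos: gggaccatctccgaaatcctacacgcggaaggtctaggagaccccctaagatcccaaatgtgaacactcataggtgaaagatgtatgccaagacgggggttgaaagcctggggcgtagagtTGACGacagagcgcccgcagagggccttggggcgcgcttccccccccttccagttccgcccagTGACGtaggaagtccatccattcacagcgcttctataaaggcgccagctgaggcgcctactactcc
Junb: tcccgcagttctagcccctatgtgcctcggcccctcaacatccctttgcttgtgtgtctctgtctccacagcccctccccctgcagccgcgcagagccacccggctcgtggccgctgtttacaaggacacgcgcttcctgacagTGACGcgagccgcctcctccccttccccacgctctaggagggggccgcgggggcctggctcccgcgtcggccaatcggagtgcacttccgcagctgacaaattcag
Nr4a1: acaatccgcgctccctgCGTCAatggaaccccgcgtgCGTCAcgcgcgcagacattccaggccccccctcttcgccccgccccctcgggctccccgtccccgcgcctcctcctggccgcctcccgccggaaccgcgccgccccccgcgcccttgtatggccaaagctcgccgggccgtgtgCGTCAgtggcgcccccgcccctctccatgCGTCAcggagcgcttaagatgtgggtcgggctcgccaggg
Egr4: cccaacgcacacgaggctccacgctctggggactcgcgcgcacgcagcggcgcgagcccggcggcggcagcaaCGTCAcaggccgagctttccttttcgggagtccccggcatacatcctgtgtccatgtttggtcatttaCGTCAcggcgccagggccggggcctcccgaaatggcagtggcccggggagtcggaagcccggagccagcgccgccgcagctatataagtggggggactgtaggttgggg
Klf2: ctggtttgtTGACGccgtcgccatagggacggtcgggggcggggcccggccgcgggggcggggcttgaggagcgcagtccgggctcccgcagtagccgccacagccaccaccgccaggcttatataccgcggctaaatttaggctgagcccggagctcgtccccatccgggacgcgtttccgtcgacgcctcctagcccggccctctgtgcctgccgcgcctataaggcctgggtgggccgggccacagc
The half-site stood at positions -129 to -125 and -66 to -62 from the start site in Fos, at -106 to -102 in Junb, at -233 to -229, -213 to -209, -69 to -65 and -40 to -36 in Nr4a1, at -177 to -173 and -109 to -105 in Egr4 and at -241 to -237 in Klf2. Genes with a half-site were thus found among those that rose, such as Junb, and those that fell, such as Klf2.

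The first question was whether polysomes of each class of projection neuron carried more or less immediate early RNA than the tissue around them. In neurons projecting to NAc or BLA many of these genes rose, among them Junb, Fos, Jun, Egr4 and Nptx2 at 1.73-fold to 2.95-fold. In neurons projecting to VTA, Egr4 and Crem rose, and Arc, Ier3, Egr1 and Klf2 fell. A gene is called where the authors' deposited table gives it an adjusted p below 0.05. In the PL-NAc IP 19 of the 35 were higher, where 21.4% of all genes tested were higher, and 2 were lower, where 21.7% were. In the PL-BLA IP 16 were higher and 2 lower, against 20.8% and 20.2% of all genes. In the PL-VTA IP 2 were higher and 4 lower, against 11.0% and 10.5%. The median log2 fold change over the members was 0.29 for PL-NAc, 0.28 for PL-BLA and -0.07 for PL-VTA, against -0.03, -0.02 and 0.02 over all genes tested. Most members were abundant, with 32 of 35 at a mean normalized count of at least 50 in each table. Among genes at that level 32% were higher in PL-NAc and 30.1% in PL-BLA. Both counts of higher members depend on the reference: measured against the median of 10 excitatory neuron markers, 5 were higher and 18 lower in PL-NAc, where 2.92% and 63.5% of all genes were, and 5 higher and 15 lower in PL-BLA, where 2.78% and 62.6% were. That scale subtracts 1 constant, 0.57 or 0.55, from every gene, and so puts smaller positive values such as those of Egr1, Nr4a1, Crem and Klf6 below 0. Requiring at least 1.5-fold left 9 higher members in PL-NAc, where 7.81% of all genes passed.

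By pattern, 16 members were higher in both PL-NAc and PL-BLA, or 45.7% of the members, while 19.3% of genes tested in all projections were. Of these 16, 2 (Egr4 and Crem) were also higher in PL-VTA, 1 (Egr1) was lower there, and 13 were not called there. Over all genes tested in the 3 projections, 8.76% were higher in every IP. Across the 35 members the log2 fold changes of PL-NAc and PL-BLA, which share no library, had a Pearson r of 0.93, and those of PL-NAc and PL-VTA an r of 0.47. These describe the members and carry no p, since genes are not replicates. The PL-VTA value was the lowest of the 3 in 23 of the 35 members, against 29.8% of all genes. A total of 12 members were called in no projection. The share of all genes called in none was not counted, so this number is no finding about the members.

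**Figure D2:**
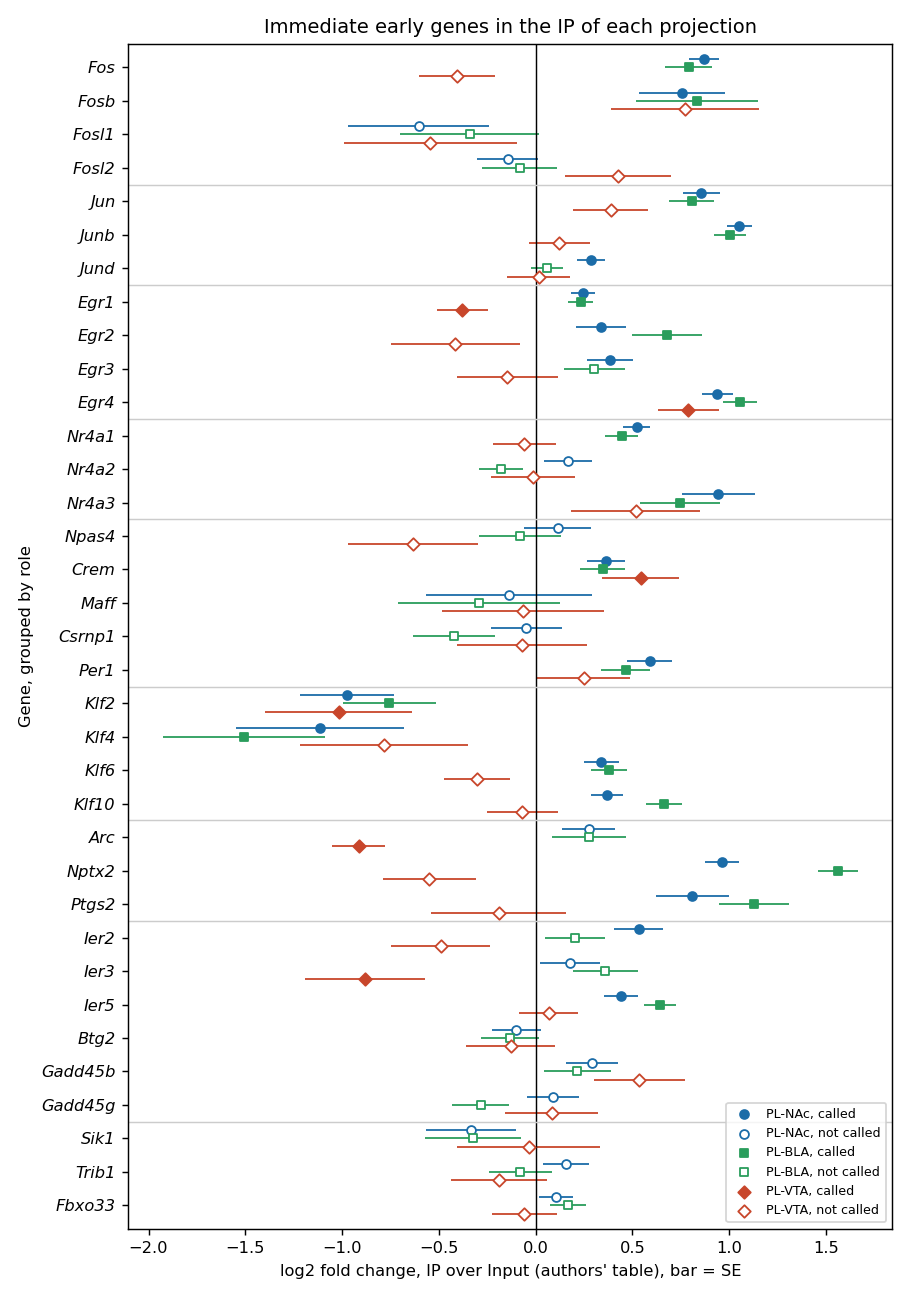
Log2 fold change of IP over Input with its SE (x axis) for each member (y axis, grouped by role) in PL-NAc, PL-BLA and PL-VTA, from the authors' tables; filled symbols passed an adjusted p under 0.05. The PL-NAc and PL-BLA symbols lie close together, while the PL-VTA symbols of Fos, Egr1, Arc, Nptx2 and Ier3 lie on the other side of 0.

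**Figure D3:**
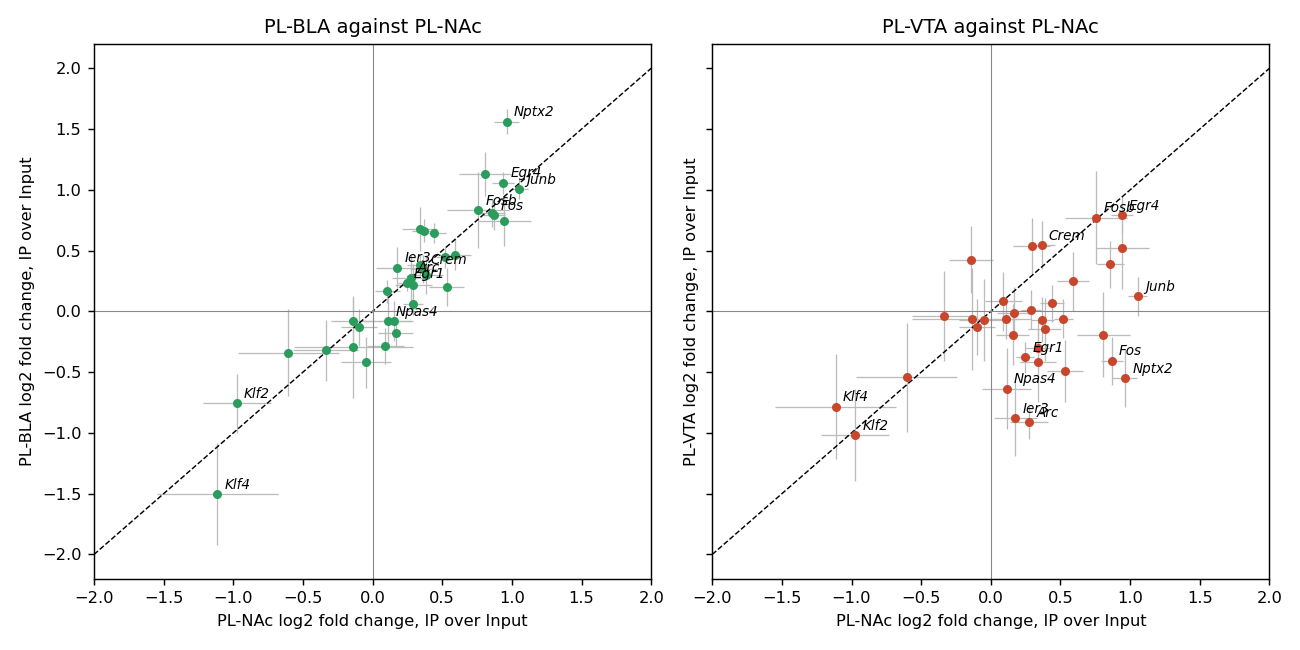
Log2 fold change in PL-BLA (left) and PL-VTA (right) against PL-NAc for the 35 members, with SE bars; the dashed line marks equal values. On the left the points follow the line (r 0.93), and on the right Fos, Nptx2 and Arc lie far below it, while Egr4, Fosb and Crem lie near it or above it.

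Fos and Jun proteins pair to form AP-1, which drives later genes. Fos (ENSMUSG00000021250, chromosome 12, 85473890 to 85477273) had a mean normalized count of 1672 for PL-NAc, 983 for PL-BLA and 716 for PL-VTA in the authors' deposited tables. It rose in the PL-NAc IP, with a log2 fold change of 0.87 (SE 0.08, adjusted p 1.17e-26), and in the PL-BLA IP, with 0.79 (SE 0.12, adjusted p 8.97e-10), in the authors' deposited tables. In PL-VTA it stood at -0.41 (SE 0.20, adjusted p 0.133) in the authors' deposited table and was not called. Fosb, whose truncated product builds up with repeated stimulation, was 0.76 (SE 0.22) and 0.83 (SE 0.32) in PL-NAc and PL-BLA, both called, and 0.77 (SE 0.38) in PL-VTA, not called, in the authors' deposited tables. The 3 Fosb values thus lay within 1 SE of each other, at means of 66.5 to 110 normalized counts. Fosl1 and Fosl2, the genes of the Fra proteins, were not called. Fosl1, at 30.9 to 32.9 mean normalized counts, was -0.60 (SE 0.36), -0.34 (SE 0.36) and -0.54 (SE 0.45), and Fosl2 -0.14 (SE 0.16), -0.08 (SE 0.19) and 0.43 (SE 0.27), in PL-NAc, PL-BLA and PL-VTA, in the authors' deposited tables. Fosl1 shares 57.2% of its exon bases with Ccdc85b on the opposite strand. The settings of the read counting are not given, so whether reads of these genes were told apart by strand is not known.

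Of the Jun genes, Junb (ENSMUSG00000052837, chromosome 8, 84974484 to 84978718) showed the widest rise. Its log2 fold change was 1.05 (SE 0.06, adjusted p 3.82e-57) in PL-NAc and 1.01 (SE 0.08, adjusted p 1.04e-32) in PL-BLA, and 0.12 (SE 0.16, adjusted p 0.669) in PL-VTA, in the authors' deposited tables. Jun, the main partner of Fos, rose by 0.86 (SE 0.10) and 0.81 (SE 0.12) in PL-NAc and PL-BLA, and was 0.39 (SE 0.19) in PL-VTA, not called, in the authors' deposited tables. Jund, the family member with high resting expression, was 0.29 (SE 0.07) in PL-NAc, called, and 0.06 (SE 0.08) and 0.02 (SE 0.16) in PL-BLA and PL-VTA, not called, in the authors' deposited tables. Jund shares 52.6% of its exon bases with Gm11175 on the opposite strand.

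The Egr genes encode zinc finger factors that bind GC-rich promoters. Egr1 (ENSMUSG00000038418), widely used to map cortical activity, was the most abundant member, at 11994 mean normalized counts in PL-NAc. It was modestly higher in the PL-NAc IP at 0.25 (SE 0.06, adjusted p 0.000434) and in the PL-BLA IP at 0.23 (SE 0.07, adjusted p 0.00194), and lower in the PL-VTA IP at -0.38 (SE 0.13, adjusted p 0.0219), in the authors' deposited tables. Egr4 (ENSMUSG00000071341, chromosome 6, 85511121 to 85513589) rose in all projections, by 0.94 (SE 0.08, adjusted p 3.91e-31) in PL-NAc, 1.06 (SE 0.09, adjusted p 2.63e-31) in PL-BLA and 0.79 (SE 0.16, adjusted p 1.03e-05) in PL-VTA, in the authors' deposited tables. Egr4 and Egr1 thus parted in PL-VTA. Egr2, known also for its part in myelination, was 0.34 (SE 0.13) and 0.68 (SE 0.18) in PL-NAc and PL-BLA, both called, and -0.41 (SE 0.33) in PL-VTA in the authors' deposited tables. Egr3 was called in PL-NAc at 0.39 (SE 0.12), and was 0.30 (SE 0.16) and -0.15 (SE 0.26) in PL-BLA and PL-VTA, in the authors' deposited tables.

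The Nr4a genes encode orphan nuclear receptors induced by cAMP and calcium. Nr4a1 rose in PL-NAc and PL-BLA, by 0.52 (SE 0.07) and 0.44 (SE 0.09), and was -0.06 (SE 0.16) in PL-VTA, in the authors' deposited tables. Nr4a3 rose by 0.94 (SE 0.19) and 0.75 (SE 0.21), and was 0.52 (SE 0.33) in PL-VTA, not called, in the authors' deposited tables. Nr4a2, which also marks certain deep-layer and claustral neurons, was 0.17 (SE 0.13), -0.18 (SE 0.12) and -0.02 (SE 0.22) in the authors' deposited tables and was not called.

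Among the other transcription factors, Npas4, which responds to calcium entry more selectively than the rest, was not called. It was 0.11 (SE 0.17), -0.08 (SE 0.21) and -0.64 (SE 0.34) in PL-NAc, PL-BLA and PL-VTA in the authors' deposited tables. Crem, a CREB relative whose inducible short form ICER represses CRE-driven genes, was the other member higher in all projections, at 0.36 (SE 0.10), 0.35 (SE 0.12) and 0.54 (SE 0.20, adjusted p 0.0314) in the authors' deposited tables. Its PL-VTA call was lost at a threshold of 0.01, at 1.5-fold, and when centred on the median gene (adjusted p 0.0693) or on excitatory markers (adjusted p 0.0601). Counts per gene cannot tell ICER from the other Crem forms. Per1, a clock gene also induced through CREB, rose by 0.59 (SE 0.12) and 0.47 (SE 0.13) in PL-NAc and PL-BLA, and was 0.25 (SE 0.24) in PL-VTA, in the authors' deposited tables. Maff, a small Maf factor at 5.32 to 10.4 mean normalized counts, was not called, nor was Csrnp1, at -0.05 (SE 0.18), -0.42 (SE 0.21) and -0.07 (SE 0.33) in the authors' deposited tables.

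The Klf genes went both ways. Klf6 and Klf10, the latter induced by TGF-beta, rose in PL-NAc by 0.34 (SE 0.09) and 0.37 (SE 0.08) and in PL-BLA by 0.38 (SE 0.09) and 0.66 (SE 0.09), in the authors' deposited tables. The authors' deposited table of PL-VTA gave Klf6 -0.30 (SE 0.17) and Klf10 -0.07 (SE 0.18), and neither was called. Klf2, which blood flow induces in endothelium, fell in all projections, to -0.97 (SE 0.24), -0.76 (SE 0.24) and -1.02 (SE 0.38) in the authors' deposited tables, or 50.9%, 59.2% and 49.4% of Input. Its PL-VTA call (adjusted p 0.0375 in the authors' deposited table) was lost at a threshold of 0.01 and without the filter on low values. Klf4, also an endothelial factor, was -1.11 (SE 0.43) and -1.51 (SE 0.42) in PL-NAc and PL-BLA, both called, and -0.78 (SE 0.43) in PL-VTA, not called, at 10.4 to 14.5 mean normalized counts, in the authors' deposited tables. Endothelial and mural cell markers were lower too, 7 of 10 called in PL-NAc, 8 of 10 in PL-BLA and 3 of 9 tested in PL-VTA, none higher. Their medians were -1.10, -1.12 and -0.82, and the summed level of the 10 was 70.1, 75.8 and 82.3 counts per 1000000 (CPM) in Input and 27.3, 29.7 and 42.6 in the IP, with none at 0. Their part in the fall of Klf2 and Klf4 was not tested. The IP was drawn from polysomes of tagged cells, so its ratio to Input measures neither the number of cells of a type nor their RNA per cell.

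The synaptic and secreted effectors showed the widest contrast between projections. Arc (ENSMUSG00000022602, chromosome 15, 74669083 to 74672570) removes AMPA receptors from synapses, and its mRNA is carried into dendrites. It was 0.27 (SE 0.14, adjusted p 0.0933) and 0.28 (SE 0.19, adjusted p 0.260) in PL-NAc and PL-BLA, not called, in the authors' deposited tables. In PL-VTA it fell to -0.91 (SE 0.14, adjusted p 1.55e-09) in the authors' deposited table, or 53.1% of Input. Nptx2 (ENSMUSG00000059991, chromosome 5, 144545902 to 144557478), a secreted pentraxin that gathers AMPA receptors at synapses, rose in PL-NAc by 0.96 (SE 0.09, adjusted p 1.64e-25) and in PL-BLA by 1.56 (SE 0.10, adjusted p 1.21e-50), in the authors' deposited tables. In PL-VTA Nptx2 was -0.55 (SE 0.24, adjusted p 0.0878), not called, in the authors' deposited table. Ptgs2, the cyclooxygenase that excitatory neurons make on stimulation, rose by 0.81 (SE 0.19) and 1.13 (SE 0.18), and was -0.19 (SE 0.35) in PL-VTA, in the authors' deposited tables.

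Of the response and growth control genes, Ier5 rose in PL-NAc and PL-BLA, by 0.44 (SE 0.09) and 0.64 (SE 0.08), and was 0.07 (SE 0.15) in PL-VTA, in the authors' deposited tables. Ier2 rose in PL-NAc by 0.53 (SE 0.13), and was 0.20 (SE 0.16) in PL-BLA and -0.49 (SE 0.26) in PL-VTA, in the authors' deposited tables. Ier3 fell in PL-VTA, to -0.88 (SE 0.31, adjusted p 0.0247), and was 0.18 (SE 0.15) and 0.36 (SE 0.17) in PL-NAc and PL-BLA, not called, in the authors' deposited tables. The growth arrest gene Btg2 was -0.10 (SE 0.13), -0.13 (SE 0.15) and -0.13 (SE 0.23) in the authors' deposited tables, not called. Gadd45b, which takes part in activity-linked DNA demethylation, was 0.29 (SE 0.13), 0.22 (SE 0.17) and 0.54 (SE 0.24), and its relative Gadd45g 0.09 (SE 0.13), -0.28 (SE 0.15) and 0.08 (SE 0.24), in the authors' deposited tables, none called. The kinase Sik1, which restrains CREB coactivators, was -0.34 (SE 0.23), -0.32 (SE 0.25) and -0.04 (SE 0.37) in the authors' deposited tables. The pseudokinase gene Trib1 was 0.16 (SE 0.12), -0.08 (SE 0.16) and -0.19 (SE 0.25), and the ubiquitin ligase adaptor gene Fbxo33 0.11 (SE 0.09), 0.17 (SE 0.09) and -0.06 (SE 0.17), in the authors' deposited tables. None of these 3 was called.

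The second question was whether the enrichment itself differed between projections. For several members it was lower in PL-VTA than in PL-NAc or PL-BLA, and for Fos, Junb, Egr1, Klf6, Arc and Nptx2 it was lower than in both. The difference of the log2 fold changes was put to a two-sided Wald z test for each gene, adjusted by Benjamini-Hochberg over all genes. Against PL-VTA, 8 of 35 members were higher in PL-NAc, or 22.9%, where 1.02% of 21559 genes were. None was lower, where 1.28% of genes were. Against PL-VTA, 10 of 35 were higher in PL-BLA, or 28.6%, where 1.56% of 21613 genes were, and none was lower, where 1.49% were. Between PL-NAc and PL-BLA no member was higher in PL-NAc, where 0.391% of 21981 genes were, and 1 was higher in PL-BLA, where 0.751% were. Over the 3 projections together, 9 of 35 members differed by Cochran's Q, or 25.7%, against 3.94% of 21129 genes. Measured against the median of the excitatory neuron markers in each projection, 7 members differed by Cochran's Q, where 23.6% of all genes did. Of the 9 members, 6 lost their call on that scale.

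Nptx2 had the widest difference. Its enrichment was 1.51 (SE 0.26) higher on the log2 scale in PL-NAc than in PL-VTA, with an adjusted p of 1.07e-06, and 2.11 (SE 0.26) higher in PL-BLA, with an adjusted p of 3.39e-13 (Wald z). It was also the 1 member that separated PL-NAc from PL-BLA, at -0.60 (SE 0.14, adjusted p 0.00210, Wald z). Fos was 1.28 (SE 0.21) and 1.20 (SE 0.23) higher in PL-NAc and PL-BLA than in PL-VTA, with adjusted p of 5.03e-07 and 2.76e-05 (Wald z). Arc was 1.19 (SE 0.19) and 1.19 (SE 0.24) higher, with adjusted p of 3.19e-07 and 5.88e-05 (Wald z). Both came to more than a doubling of the ratio of IP to Input. Junb was 0.93 (SE 0.17) and 0.88 (SE 0.18) higher, Egr1 0.62 (SE 0.15) and 0.61 (SE 0.15), and Klf6 0.64 (SE 0.19) and 0.68 (SE 0.19). For the other members called, 1 of the pair of differences passed: Nr4a1 and Ier2 against PL-NAc, and Klf10, Ptgs2, Ier3 and Ier5 against PL-BLA.

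Not every member that was higher in PL-NAc and PL-BLA differed in PL-VTA. For Egr4 the difference from PL-VTA was 0.15 (95% interval -0.19 to 0.49) for PL-NAc and 0.27 (-0.08 to 0.62) for PL-BLA. For Crem it was -0.18 (-0.61 to 0.25) and -0.20 (-0.65 to 0.25). For Fosb the intervals were wider, -0.88 to 0.85 and -0.91 to 1.03. The median SE of genes with 50 or more mean normalized counts was 0.219 for PL-VTA, against 0.124 for PL-NAc and 0.129 for PL-BLA, so that small differences from PL-VTA were not detectable.

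**Figure D4:**
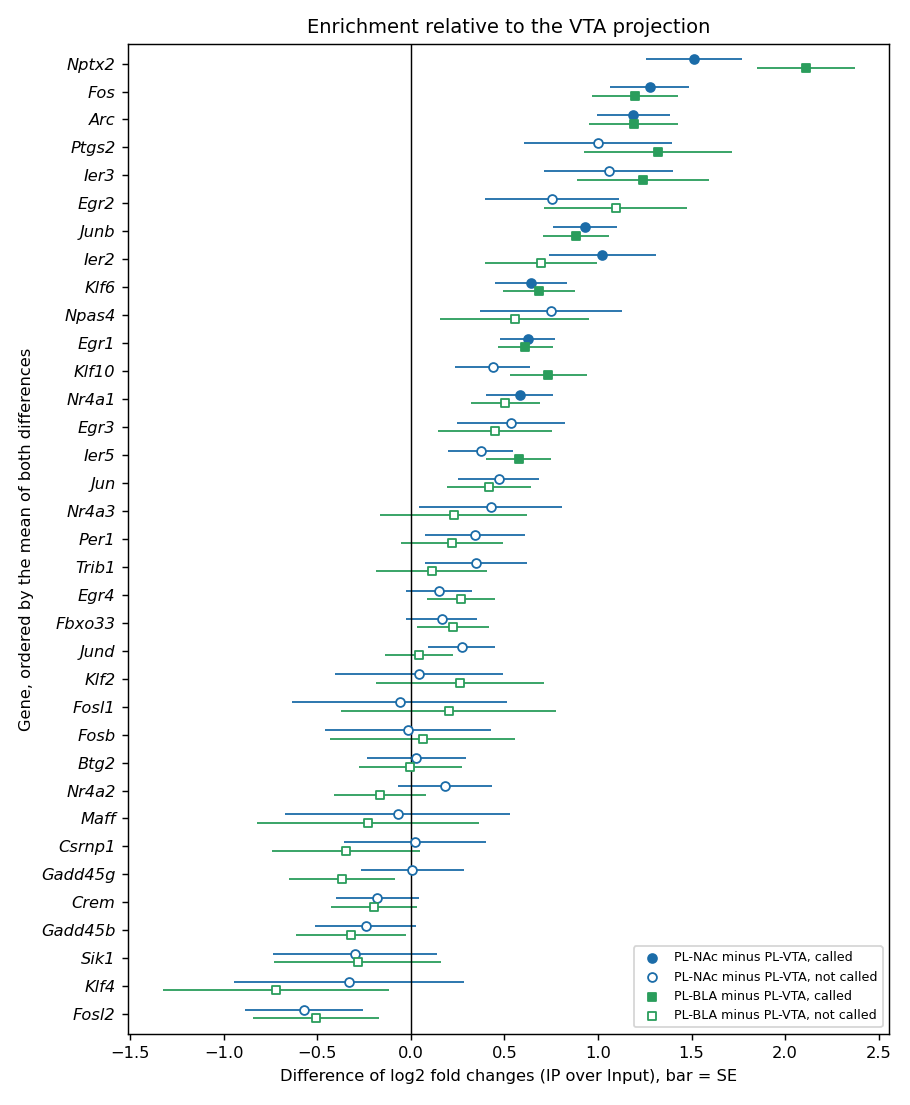
Difference between the log2 fold change of IP over Input in PL-NAc (circles) or PL-BLA (squares) and that in PL-VTA, with its SE (x axis), for each member (y axis); filled symbols passed an adjusted p under 0.05. Genes are ordered by the mean of both differences, with Nptx2, Fos and Arc at the top, at 1.19 to 2.11, and no filled symbol lies below 0.

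Some excitatory neuron markers differed in the same direction. Of 10 such markers, 3 were higher in PL-NAc than in PL-VTA and 3 in PL-BLA than in PL-VTA (Wald z), and none was lower. Of all genes 1.02% and 1.56% were higher. Against Input, 8 were higher for PL-NAc, 8 for PL-BLA and 2 for PL-VTA, and 1, 0 and 2 were lower, with medians of 0.57, 0.55 and 0.05. The glutamate transporter gene Slc17a7 was 0.46 (SE 0.14) higher in PL-NAc than in PL-VTA and 0.59 (SE 0.14) higher in PL-BLA, and the transcription factor gene Neurod6 1.82 (SE 0.16) and 2.16 (SE 0.17) (Wald z, adjusted p 0.0351, 0.00119, 1.44e-25 and 4.49e-34). The summed level of the 10 markers was 3748 to 3966 CPM in the Inputs and 5740, 5781 and 4784 in the IP of PL-NAc, PL-BLA and PL-VTA, with none at 0. With each projection centred on its own median of these markers, Fos, Arc and Nptx2 were lower in PL-VTA than in PL-NAc and than in PL-BLA. The differences were 0.76 and 0.70, 0.67 and 0.70, and 0.998 and 1.62, with adjusted p from 5.95e-08 to 0.0229 (Wald z). These 3 genes were the ones left of the 8 and of the 10, or 8.57% of the members, against 0.473% and 0.689% of all genes. On that scale 3 members were higher in PL-VTA than in PL-NAc and 5 than in PL-BLA, among them Crem and Fosl2 in both, where 26.9% and 20.6% of all genes were. The scale subtracts 1 constant per projection, while the 10 markers differed unevenly. Their differences from PL-VTA ran from -0.24 to 1.82 for PL-NAc and from -0.08 to 2.16 for PL-BLA. The part of excitatory neuron content in the values of the members was not tested.

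Most glial and inhibitory neuron markers were lower in the IP of each projection. The direction of the tables was read from glial, inhibitory neuron and nuclear RNAs, so the sign of these lists is no finding. All 10 oligodendrocyte markers were lower in each projection, at medians of -3.22, -2.43 and -2.49. Astrocyte markers were lower in 10, 9 and 10 of 10, microglial markers in 10, 10 and 9, and inhibitory neuron markers in 9, 10 and 8. Of the inhibitory neuron markers 2, Sst and Npy, which encode neuropeptides and are named after their values were seen, were higher in PL-NAc than in PL-VTA, by 1.95 (SE 0.21) and 2.22 (SE 0.19), and in PL-BLA than in PL-VTA, by 1.16 (SE 0.21) and 1.74 (SE 0.19), with adjusted p from 2.39e-29 to 4.76e-06 (Wald z). Sst was called higher in the PL-NAc IP, at 0.26 (SE 0.09), and was -1.69 (SE 0.19) in PL-VTA, in the authors' deposited tables. Another, Gad1, was lower in PL-NAc than in PL-VTA, by -0.61 (SE 0.17). For astrocytes and oligodendrocytes the fall was larger in PL-NAc than in PL-BLA for 6 of 10 markers each, and larger in PL-NAc than in PL-VTA for 3 of 10 astrocyte and 4 of 10 oligodendrocyte markers, with median differences of -0.53 and -0.69 (Wald z). Of 6 nuclear noncoding RNAs all were lower, at medians of -3.92, -3.53 and -2.97, and 3 of them fell less in PL-VTA than in each of the others. Their part in the values of the members was not tested.

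Levels add to the picture of ratios. The tables give a mean over equal numbers of IP and Input libraries, from which an IP and an Input level in CPM were derived with the fold change. These have no spread or test, and each table was normalized separately. Over the 35 members they summed to 2773 CPM in Input and 3729 in the IP for PL-NAc, 1924 and 2601 for PL-BLA, and 2050 and 1834 for PL-VTA. Fos came to 76.6 in Input and 140.0 in the IP for PL-NAc, 44.1 and 76.2 for PL-BLA, and 49.4 and 37.3 for PL-VTA. Arc came to 488 and 590 for PL-NAc, 225 and 272 for PL-BLA, and 286 and 152 for PL-VTA. For both genes PL-NAc had the highest of the 3 Inputs and the highest of the 3 IPs, and the PL-VTA IP had the lowest level of all. Nptx2 came to 110 and 114 in the IP of PL-NAc and PL-BLA and 27.4 in that of PL-VTA, with 56.4, 38.5 and 40.1 in the Inputs. Egr4 was 199, 159 and 125 in the IP and 104, 76.5 and 72.1 in Input. Per kilobase of merged exon, Arc and Egr1 had the highest means in PL-NAc, 2723 and 2675 normalized counts, above 98.3% of protein-coding genes tested. Maff and Klf4 had the lowest, 2.05 and 3.42.

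**Figure D5:**
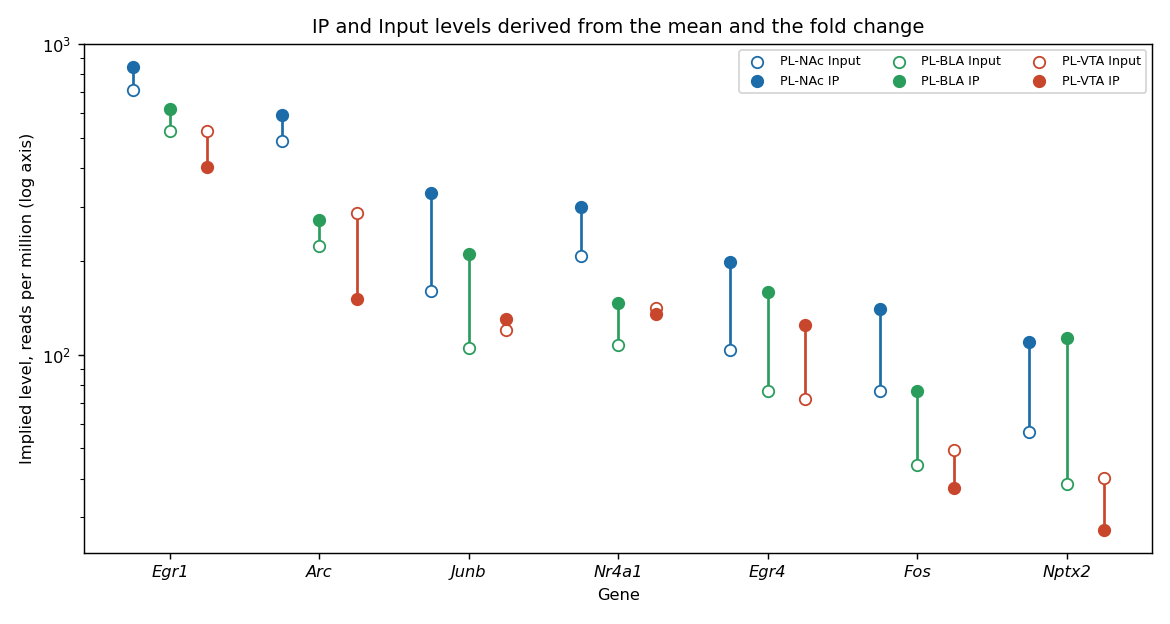
Input (open) and IP (filled) levels in CPM on a log axis for 7 abundant members in PL-NAc, PL-BLA and PL-VTA, derived from the mean normalized count and the fold change, without replicate spread. For Arc, Fos, Nptx2 and Egr1 the filled symbol lies above the open one in PL-NAc and PL-BLA and below it in PL-VTA.

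Regulators that act before these genes were read from a separate list. Of 31 genes for kinases, calcineurin subunits, transcription factors and coactivators of the CREB, SRF and MEF2 pathways, 10 were higher and 11 lower for PL-NAc, 11 and 7 for PL-BLA, and 2 and 2 for PL-VTA, with medians of -0.01, -0.03 and -0.05. These were 32.3% and 35.5%, 35.5% and 22.6%, and 6.45% and 6.45% of the list. Of all genes tested, 21.4% were higher and 21.7% lower for PL-NAc, 20.8% and 20.2% for PL-BLA, and 11.0% and 10.5% for PL-VTA. Mapk3, the kinase ERK1, rose by 0.81 (SE 0.07) in PL-NAc, 0.54 (SE 0.09) in PL-BLA and 0.43 (SE 0.15) in PL-VTA in the authors' deposited tables. Mef2c, a calcium-responsive factor, rose by 0.49 (SE 0.06), 0.67 (SE 0.07) and 0.41 (SE 0.13), and the CREB coactivator gene Crtc1 by 0.58 (SE 0.07) and 0.51 (SE 0.07) in PL-NAc and PL-BLA, in the authors' deposited tables. The authors' deposited table for PL-VTA had lower values of the CaMK cascade kinases Camkk2, at -0.55 (SE 0.13), and Camkk1, at -0.51 (SE 0.14). In the test of differences 1 of the 31, Camkk1, passed, being 0.50 (SE 0.15) higher in PL-BLA than in PL-VTA (Wald z, adjusted p 0.0414). That is 3.23% of the list, against 1.56% of all genes.

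Of 30 other activity-induced genes, 11 were higher and 9 lower for PL-NAc, 12 and 7 for PL-BLA, and 3 and 3 for PL-VTA, with medians of 0.08, 0.15 and 0.07. These were 36.7% and 30%, 40% and 23.3%, and 10% and 10% of the list. The shares of all genes were 21.4% and 21.7%, 20.8% and 20.2%, and 11.0% and 10.5%. Bdnf, a neurotrophin, was higher in all, at 0.89 (SE 0.10), 1.19 (SE 0.10) and 0.65 (SE 0.18) in PL-NAc, PL-BLA and PL-VTA in the authors' deposited tables. Rheb, the activator of mTORC1, was also higher in all, at 0.73 (SE 0.06), 0.73 (SE 0.08) and 0.70 (SE 0.13) in the authors' deposited tables. Nptx1, the relative of Nptx2, rose in PL-NAc and PL-BLA, by 0.32 (SE 0.07) and 0.28 (SE 0.08), and fell in PL-VTA to -0.69 (SE 0.16), in the authors' deposited tables. The difference of Nptx1 from PL-VTA was 1.01 (SE 0.18) for PL-NAc and 0.97 (SE 0.18) for PL-BLA (Wald z, adjusted p 3.09e-06 and 1.37e-05). The cell cycle inhibitor gene Cdkn1a was 1.45 (SE 0.25) and 1.38 (SE 0.26) higher in PL-NAc and PL-BLA than in PL-VTA (Wald z, adjusted p 1.05e-06 and 1.46e-05). In all, 2 of the 30 were higher in PL-NAc than in PL-VTA, where 1.02% of all genes were. In PL-BLA 3 were higher than in PL-VTA, where 1.56% of all genes were. The third was Plk3, and the 1 gene higher in PL-VTA than in PL-NAc was Scg2, both looked up after the counts were seen. Of all genes 1.28% were higher in PL-VTA than in PL-NAc.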

How the data were processed

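The submitters' processing notes name STAR 2.3, featureCounts and DESeq2 and the build mm10 (GRCm38), without the settings of each. Per the file headers, each of the 3 deposited tables holds a mean signal (normalized counts averaged over the libraries of 1 comparison), a log2 fold change with its standard error, a Wald statistic (score), a p-value and an adjusted p-value. The headers do not name the direction, and IP over Input was read from glial, inhibitory neuron and nuclear RNAs being mostly negative. No per-library values were used here, so the authors' comparison was used and no count test was run. Whether their fold changes were shrunken is not given in the labels, and those of genes with low counts may be understated. Any shrinkage may be unlike between projections, and the tests of differences took no account of it. Summed over genes, the mean counts came to 15437849 for PL-NAc, 16347808 for PL-BLA and 16520414 for PL-VTA; genes with no symbol made up 0.240%, 0.227% and 0.235% and stayed in the adjustment. Depth per library is unknown.

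Differences between projections, which share no library, were tested with Wald z and Cochran's Q (2 degrees of freedom) on the deposited values, adjusted by Benjamini-Hochberg over all genes with a p, with Python 3.11.15 and scipy 1.17.1; both were tested on simulated data. Levels (CPM) were derived by splitting the mean between IP and Input by the fold change, over the summed mean. The members and lists were chosen with earlier results of these data known. Members called in any projection or at 50 or more mean counts were given with values; of other lists, the 3 genes with the smallest adjusted p per projection could be named. Kcnq1ot1, listed among nuclear RNAs, had no row under that symbol. Alternatives were a threshold of 0.01, no filter, a mean of at least 50, 2 centrings and at least 1.5-fold.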

Additional observations from a re-analysis of the deposited data

Results flagged for a closer look

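For 12 of the 35 genes, or 34.3%, against 4.33% of 21129 genes, the ratio of IP to Input differed between projections by a test of the difference itself (two-sided Wald z, Benjamini-Hochberg adjusted over all genes), and these differences of log2 fold changes are listed for that reason. Among genes with a mean of at least 50 the shares of genes were larger. At that level 9 members were higher in PL-NAc than in PL-VTA, where 1.89% of genes were, and 10 in PL-BLA, where 2.83% were. By Cochran's Q 10 members were unequal, where 7.31% were. Nptx2 was 1.5120 higher in PL-NAc and 2.1111 higher in PL-BLA than in PL-VTA, and -0.5991 in PL-NAc relative to PL-BLA. Fos was 1.2754 higher in PL-NAc and 1.1973 higher in PL-BLA than in PL-VTA. Arc was 1.1885 and 1.1899 higher, Junb 0.9299 and 0.8822, Klf6 0.6417 and 0.6838, and Egr1 0.6240 and 0.6108, in the same order. In PL-NAc alone Ier2 was 1.0233 and Nr4a1 0.5805 higher than in PL-VTA by a test that passed. In PL-BLA alone Ptgs2 was 1.3199, Ier3 1.2409, Klf10 0.7333 and Ier5 0.5755 higher than in PL-VTA by a test that passed. Whether the difference from PL-VTA was itself unlike in PL-NAc and PL-BLA was tested by their own difference, which passed for Nptx2 and for no other member. Centred on excitatory markers, 12 of the 19 differences lost their call, and those of Fos, Arc and Nptx2 kept it.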

How the results depend on the processing

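Leave-one-out fits, DESeq2 and TMM on counts were not run, since the tables used here hold no values per library. No paired analysis was possible because the tables give 1 estimate per projection. Relative to the median gene all 19 called differences kept their call, as they did among genes with a mean of at least 50, and no direction turned in either. With an adjusted p under 0.01, 5 members stayed higher in PL-NAc than in PL-VTA (0.673% of all genes) and 5 in PL-BLA than in PL-VTA (1.04%). At that threshold 5 were unequal over the projections (2.65%). There 1 was lower in the PL-NAc IP (17.1% of all genes), and 1 was higher and 1 lower in the PL-VTA IP (7.12% and 7.41%). With a mean of at least 50, 1 was lower in PL-NAc (24.6% of genes at that level) and 1 in PL-BLA (23.6%). At least 1.5-fold left 9 higher in PL-NAc (7.81% of all genes) and 1 in PL-VTA (6.16%). Centring on the median gene left 1 higher in PL-VTA (8.41%), and Crem was lost in PL-VTA under both settings. Centred on excitatory markers, 5 were higher and 18 lower in PL-NAc (2.92% and 63.5% of all genes), 5 higher and 15 lower in PL-BLA (2.78% and 62.6%), and 1 higher in PL-VTA (8.89%). On that scale 3 were higher and 3 lower in PL-NAc than in PL-VTA (0.473% and 26.9% of all genes). In PL-BLA against PL-VTA 3 were higher and 5 lower (0.689% and 20.6%), and 7 were unequal over the projections (23.6%). Values that turned sign there follow from subtracting a median of 0.57 or 0.55. Some had no call with or without centring and are not listed: Gadd45b in PL-NAc and PL-BLA, and Egr3, Arc and Ier3 in PL-BLA. The values listed next turned sign and had a call with or without centring. In PL-NAc they were Jund -0.2796, Egr1 -0.3212, Egr2 -0.2293, Egr3 -0.1799, Nr4a1 -0.0449, Nr4a2 -0.3993, Npas4 -0.4525, Crem -0.2025, Klf6 -0.2272, Klf10 -0.1984, Arc -0.2922, Ier2 -0.0338, Ier3 -0.3898, Ier5 -0.1252, Gadd45g -0.4763, Trib1 -0.4094 and Fbxo33 -0.4609. In PL-BLA they were Jund -0.4879, Egr1 -0.3139, Nr4a1 -0.1012, Crem -0.2002, Per1 -0.0795, Klf6 -0.1645, Ier2 -0.3424 and Fbxo33 -0.3803. PL-VTA rests on 2 libraries a group, and fold changes of genes with low counts may be understated.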
